A study of Mus musculus with 4 samples.

Results

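The genes described are those of the fibroblast growth factor (FGF), platelet-derived growth factor (PDGF) and vascular endothelial growth factor (VEGF) ligands and receptors, chosen by symbol and not by their values: Fgf1 to Fgf23, Fgfr1 to Fgfr4, Fgfrl1, Pdgfa, Pdgfc, Pdgfd, Pdgfra, Pdgfrb, and Vegfa, Vegfb, Vegfc and Vegfd (named Figf in the annotation). The annotation held 36 of them among 33924 gene symbols, and 29 had enough counts to be tested among 21340 genes. RNA-seq was performed on bone marrow of wild-type (WT) male C57Bl/6 mice that were mature (3-month-old) or elderly (24-month-old), with no treatment, and the question was which transcripts change with age. There were 2 libraries per age. The study's methods state that each group's RNA came from 3 or 4 pooled mice, whereas the sample titles number each library as a mouse. Whether each library was a separate pool is not stated. Errors (SD, n = 2) and p-values therefore measure how libraries differ, which may be partly technical, and were not read as differences between single mice. By the study's methods these were Lin-LEPR+ cells, sorted for the leptin receptor and against Ter119, CD31 and CD45, but the sample labels name whole marrow.

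FGF, PDGF and VEGF ligands bind receptor tyrosine kinases, which pair up, phosphorylate each other and signal through adaptor proteins to the ERK and PI3K cascades. FGFs bind their receptors together with heparan sulphate chains, and sprouty and DUSP proteins damp the signal. In bone marrow, PDGFRα and PDGFRβ mark stromal cells, FGF receptors act in osteoblast precursors and chondrocytes, and VEGFs maintain the sinusoidal vessels beside which LEPR+ cells lie.

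The defining gene of the sort, Lepr, was counted at 6385 and 5637 CPM (counts divided by the library total after TMM scaling, per 1000000) in the mature and at 4107 and 5787 CPM in the elderly libraries. Of 10 markers of LEPR+ stroma, edgeR and DESeq2 called 0 different between ages, and 2 were lower at an unadjusted p under 0.05. Ptprc, which encodes CD45, had 12 counts or fewer in every library. Only bases of a single annotated transcript were counted, so an absence of CD45+ cells was not read from this. Libraries held between 10472117 and 15650518 counts, and their replicates stood at a biological coefficient of variation of 0.262 by edgeR. The summed markers of neutrophils, macrophages, erythroid, B-lineage, plasma and T cells were higher in both elderly libraries, and those of megakaryocytes and eosinophils overlapped between ages. The summed level of 8 neutrophil markers was 2097 and 1196 CPM in mature and 4467 and 4438 CPM in elderly libraries, and that of 8 erythroid markers was 213 and 77.7 CPM against 620 and 739 CPM. Their part in the results for the growth factor genes was not tested. In bulk RNA, fewer cells of a type and less RNA per cell cannot be told apart.

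What a count covers matters for these genes. Reads were counted only on bases that belong to a single annotated transcript, and genes with many isoforms share most of their coding exons between transcripts. For Fgfr2, 89.5% of the counts lay on stretches of transcripts annotated as retained introns and 7.02% on transcripts annotated as protein coding. The retained-intron share was 94.96% for Fgfr3, 70.5% for Fgfr1 and 100% for Vegfa. The sequences at the edges of these stretches are shown because they carry most of the receptor counts given below: capitals mark 30 bases of an exon that coding transcripts use, and lower case marks the adjoining 30 bases counted only for the transcript named, which coding transcripts splice out. All are from the mouse genome NCBIM37 (mm9), 5′ to 3′ on the strand of the gene. Fgfr2-022 is at chr7:137339859-137339918 on the minus strand, Fgfr2-023 at chr7:137328713-137328772 on the minus strand, Fgfr1-015 at chr8:26678630-26678689 on the plus strand, Fgfr3-003 at chr5:34073900-34073959 on the plus strand and Vegfa-006 at chr17:46158042-46158101 on the minus strand.
Fgfr2-022: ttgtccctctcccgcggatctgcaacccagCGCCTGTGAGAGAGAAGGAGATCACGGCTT
Fgfr2-023: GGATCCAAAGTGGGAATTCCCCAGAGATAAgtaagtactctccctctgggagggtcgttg
Fgfr1-015: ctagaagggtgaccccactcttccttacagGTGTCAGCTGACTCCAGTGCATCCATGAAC
Fgfr3-003: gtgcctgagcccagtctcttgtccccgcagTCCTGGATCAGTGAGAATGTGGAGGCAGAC
Vegfa-006: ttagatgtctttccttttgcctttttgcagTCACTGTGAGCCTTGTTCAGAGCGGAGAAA
In each of the 4 acceptor sequences the lower-case part ends in the intron's AG, and in Fgfr2-023 it begins with the donor's GT. At their other edge, not printed here, the stretches of Fgfr1-015 and Fgfr3-003 follow a coding exon and begin with GA and GC. What gave the reads on such stretches was not tested, and reads on exons shared by several transcripts were not in the counts for either kind of RNA.

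Of the 29 genes tested, 1 was called lower in elderly mice (Fgfr2) and 0 were called higher, at an adjusted p under 0.05 by edgeR's quasi-likelihood test, adjusted over all 21340 genes by the Benjamini-Hochberg method. Over all genes tested, 0.45% were called lower and 2.28% higher. At an unadjusted p under 0.05 in the same test, 1 gene (Fgf10) was higher and 2 (Fgfr2 and Fgfr3) were lower, and DESeq2 and edgeR's exact test also called 0 higher. Both elderly libraries stood above both mature libraries in 8 of the 29, against 22.9% of all genes tested, and below them in 5 of the 29, against 18.1%. Of the 8, Fgf3, Fgf10 and Fgf21 had enough counts to be tested only through their elderly libraries. The median log2 fold change was 0.23 over the 29 genes and 0.02 over all genes tested, where a positive value is higher in elderly mice. The sign depended on the least counted genes: the median was -0.21 over the 16 genes named with all their counts, and the other 13 had under 1 CPM on average. The smallest p of an exact permutation test of 2 libraries against 2 is 0.333, and the adjusted p-values therefore rest on a spread estimated across genes.

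**Figure D1:**
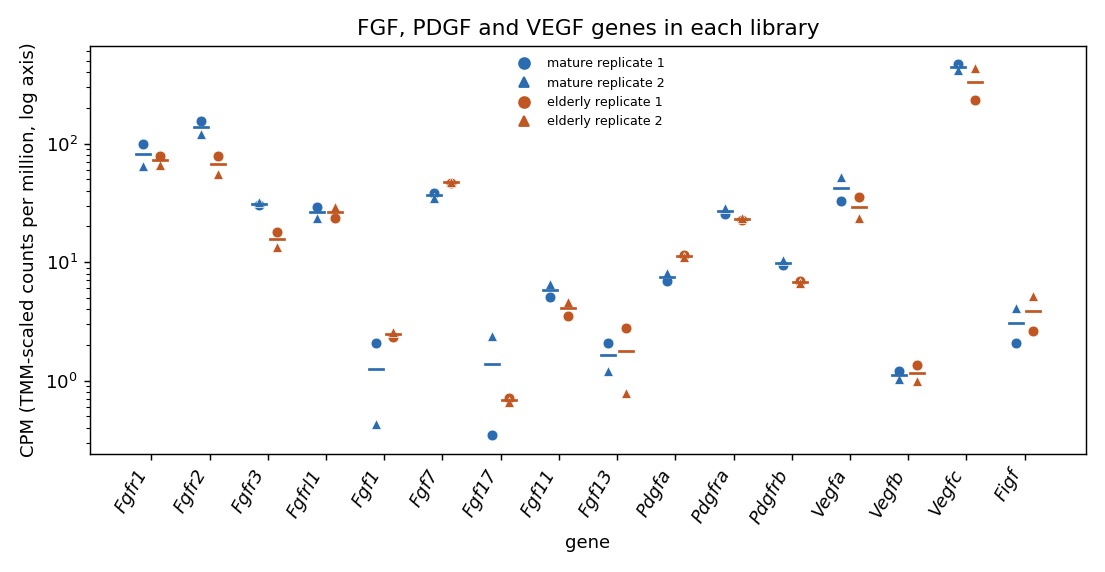
CPM (log axis) of the 16 genes with a mean of at least 1 CPM or an adjusted p under 0.05, in each library. Circles and triangles are replicates 1 and 2, blue is mature, orange is elderly and bars are group means. Fgfr2 and Fgfr3 lie lower in both elderly libraries, and Vegfc is the most counted gene in all 4.

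The FGF receptors held the clearest difference. Fgfr2 encodes a receptor tyrosine kinase needed for bone growth and, in its alternative splice forms, binds different sets of FGFs. It was counted 1806 and 1397 times in the mature libraries and 883 and 846 times in the elderly libraries. Scaled, this was 155 and 120 CPM in mature and 79.3 and 55.8 CPM in elderly libraries, so both elderly libraries lay below both mature ones. The mean fell from 138 ± 25.2 to 67.6 ± 16.6 CPM (SD, n = 2), 2.04-fold lower, with a log2 fold change of -1.03 (SE 0.23, 95% interval -1.53 to -0.53, adjusted p = 0.0322, edgeR). The call held without mature replicate 2 and was lost without any 1 of the other 3 libraries: the adjusted p by edgeR was 0.142 without mature replicate 1, 0.00992 without mature replicate 2, 0.11 without elderly replicate 1 and 0.601 without elderly replicate 2, with log2 fold changes of -0.83, -1.25, -1.32 and -0.80. Without elderly replicate 2, 0 of 20580 genes were called. The edgeR exact test with the dispersion of 0.2 named in the study's methods gave an adjusted p of 0.967 for the same fold.

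The lower Fgfr2 level was not the matter of a single transcript. All 10 Fgfr2 transcripts with at least 20 counts had both elderly libraries below both mature libraries, with log2 ratios of mean CPM from -1.57 to -0.80. They are stretches of the same gene in the same libraries and so not independent of each other. The share of all transcripts with this order was not computed. Fgfr2-022, whose own 471 bases at chr7:137339889-137340359 took 40.6% of the gene's counts, stood at 68.1 and 44.1 CPM in mature and 31.4 and 23.0 CPM in elderly libraries. Fgfr2-023, with 318 bases at chr7:137328425-137328742 and 19.2% of the counts, stood at 26.3 and 24.8 CPM in mature and 17.2 and 10.6 CPM in elderly libraries. Fgfr2-005, with 13.9% of the counts, stood at 22.2 and 14.0 CPM against 12.9 and 7.98 CPM. All 3 are annotated as retained introns, and each had its lowest value in elderly replicate 2.

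Counts on protein-coding Fgfr2 transcripts alone, which are mostly bases of a 5′ untranslated region and of a 3′ end, were 109 and 119 in mature and 50 and 68 in elderly libraries. The 545 bases of that 5′ region lie inside an intron of another coding transcript, so counts there do not separate spliced from intronic RNA. That is 9.38 and 10.2 CPM against 4.49 and 4.49 CPM, again without overlap. The log2 fold change was -1.18 on these counts (adjusted p = 0.055, edgeR) and -0.91 on the remaining transcript types (adjusted p = 0.0573, edgeR). Each kind of count taken alone therefore kept the direction and missed the threshold. This split was made after the data had been seen.

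**Figure D2:**
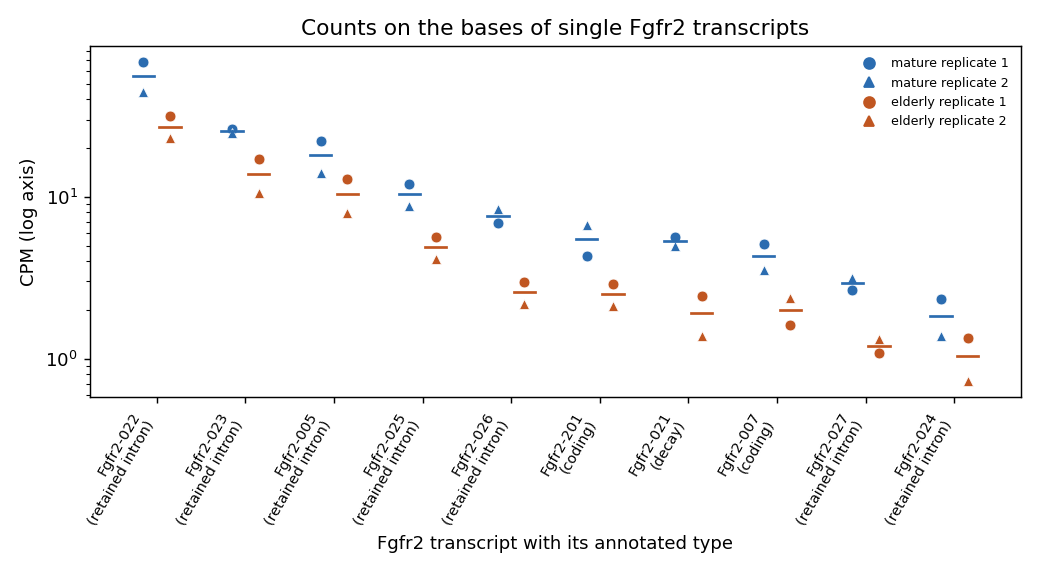
CPM (log axis) on the bases of each Fgfr2 transcript with at least 20 counts, ordered by total count, in each library; bars are group means and the annotated type is under each name. Both elderly libraries lie below both mature libraries in all 10 transcripts, those annotated as coding included.

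Fgfr3, a receptor that restrains chondrocyte growth, was counted 352 and 372 times in the mature and 201 and 205 times in the elderly libraries. Both elderly libraries were lower, with means of 31.1 ± 1.13 CPM in mature and 15.8 ± 3.20 CPM in elderly mice (SD, n = 2). The log2 fold change was -0.98 (SE 0.26, 95% interval -1.54 to -0.42), which missed the threshold (adjusted p = 0.0705, edgeR). The adjusted p fell under 0.05 in 6 of 12 other settings, among them DESeq2 at 0.02 and the fit with a replicate block at 0.0041, although the replicate number was not taken as a pairing. It stayed above 0.05 by edgeR with library size only (0.102), on coding transcripts (0.753), on other transcript types (0.138) and under the exact test. With 1 library left out, the log2 fold change of Fgfr3 ran from -1.22 to -0.78. Of its counts, 86.0% lay on the retained-intron transcript Fgfr3-003, at 26.6 and 27.0 CPM in mature and 15.5 and 11.6 CPM in elderly libraries. Its coding transcripts had 22, 13, 17 and 5 counts, in which the ages overlapped.

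Fgfr1, the FGF receptor most used by mesenchymal cells, had 1159 and 760 counts in mature and 877 and 997 counts in elderly libraries. Its level was 99.8 and 65.2 CPM against 78.8 and 65.8 CPM, so the ages overlapped, and the mature libraries differed from each other more than the means of the ages did. The log2 fold change was -0.19 (95% interval -0.70 to 0.32, adjusted p = 0.865, edgeR), an interval that leaves room for a fall as large as 0.70 on the log2 scale. On its coding transcripts alone Fgfr1 stood at 28.5 and 22.8 CPM in mature and 18.5 and 20.8 CPM in elderly libraries, without overlap, whereas on the remaining transcripts it stood at 71.3 and 42.4 CPM against 60.3 and 45.0 CPM. The coding counts did not pass the test (log2 fold change -0.445, adjusted p = 0.486, edgeR). Fgfrl1, which binds FGFs but lacks the kinase domain, had 341, 277, 262 and 445 counts and overlapped fully, with means of 26.6 ± 3.96 and 26.4 ± 4.12 CPM (SD, n = 2; 95% interval of the log2 fold change -0.55 to 0.54). Fgfr4 had 5 counts in elderly replicate 1 and 0 in the other 3 libraries.

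Within a library, the ratio of 2 receptors does not depend on library scaling. There were 1.56 and 1.84 Fgfr2 counts per Fgfr1 count in the mature libraries and 1.01 and 0.849 in the elderly libraries. Fgfr3 counts per Fgfr1 count were 0.304 and 0.489 in mature and 0.229 and 0.206 in elderly libraries. Both ratios were lower in both elderly libraries, each with an exact two-sided permutation p of 0.333, the smallest this design allows. Fgfr2 counts per Fgfr3 count were 5.13 and 3.76 in mature and 4.39 and 4.13 in elderly libraries, so that the elderly values lay between the mature ones (exact permutation p = 1).

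**Figure D3:**
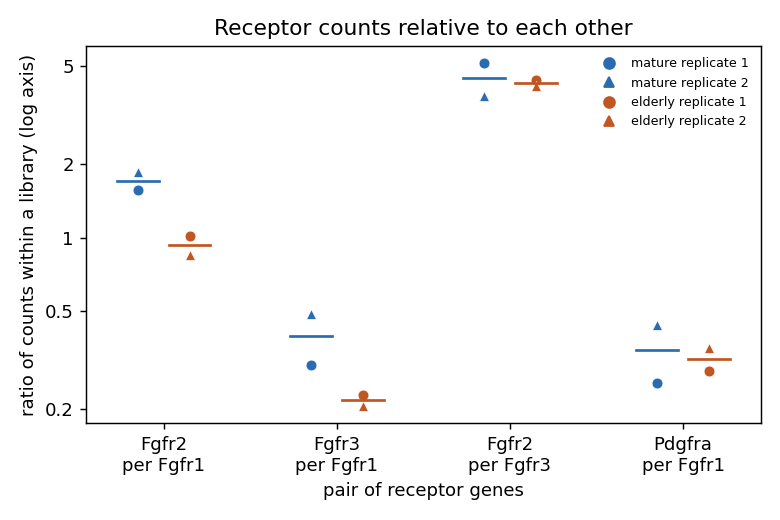
Ratio of the counts of 2 receptor genes within each library (log axis); bars are group means. The elderly libraries lie lower for Fgfr2 per Fgfr1 and Fgfr3 per Fgfr1 and overlap the mature libraries for Fgfr2 per Fgfr3 and Pdgfra per Fgfr1.

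Markers of cells that use these receptors moved unevenly with age. The summed level of the 10 LEPR+ stromal markers was 30208 and 30515 CPM in mature and 19087 and 27241 CPM in elderly libraries, with a median log2 fold change of -0.28. Of the 8 osteoblast markers, Col1a1 and Phex were called higher and Ibsp lower, and their summed level, of which Ibsp had the most counts, was 7068 and 6430 CPM against 2261 and 4237 CPM. Of 7 chondrocyte markers, Col9a1 and Comp were at 0 in all 4 libraries, Acan was called lower (117, 166, 5 and 11 counts) and Col2a1 higher (6, 8, 71 and 34 counts), and the summed level was 68.0 and 85.2 CPM in mature and 88.6 and 87.9 CPM in elderly libraries. Most of that sum was Sox9 (621, 779, 894 and 1275 counts), and the median log2 fold change of the 5 chondrocyte markers tested was -1.38, with 3 lower at an unadjusted p under 0.05. The part of these markers in the Fgfr2 and Fgfr3 values was not tested.

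Among the FGF ligands, Fgf7 was the one counted well. Fgf7, also called keratinocyte growth factor, is made by stromal cells and signals to the epithelial form of FGFR2. It had 444 and 409 counts in mature and 523 and 725 counts in elderly libraries, which is 38.2 and 35.1 CPM against 47.0 and 47.8 CPM. Both elderly libraries were higher, with a log2 fold change of 0.37 that did not pass the test (95% interval -0.10 to 0.84, adjusted p = 0.604, edgeR). Fgf7-001, counted on 664 bases of its 3′ untranslated region, held 79.3% of the counts and stood at 27.0 and 26.3 CPM in mature and 36.3 and 42.3 CPM in elderly libraries. Fgf7-002, counted on its 5′ untranslated region with 17.0% of the counts, overlapped between ages at 9.30, 7.29, 8.54 and 4.62 CPM.

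The other paracrine FGFs were near the limit of these libraries, where 3 counts equal 0.198 to 0.27 CPM. Fgf1, which binds every FGF receptor, had 24 and 5 counts in mature and 26 and 39 in elderly libraries (log2 fold change 0.97, 95% interval -0.45 to 2.40, adjusted p = 0.670, edgeR). Fgf17, a member of the Fgf8 subfamily, had 4, 28, 8 and 10 counts, with the mature libraries at both ends of the range. Fgf2, a broad mesenchymal mitogen, had 8 and 5 counts in mature and 11 and 24 in elderly libraries, a mean of 0.922 CPM over the 4 libraries. Fgf10, which like Fgf7 signals to the epithelial form of FGFR2, had 0 and 2 counts in mature and 9 and 14 in elderly libraries, a ratio of 10.2 (95% interval 2.52 to 89.1 for counting error only) that did not pass the test across libraries (adjusted p = 0.355, edgeR). Fgf10 had enough counts to be tested only through its elderly libraries, so no more was read from this ratio. Fgf3 had 0 counts in both mature and 4 in each elderly library, which did not pass the test (95% interval of the log2 fold change -0.48 to 10.4, adjusted p = 0.513, edgeR). Fgf18, known for its role in cartilage, had 8, 9, 7 and 11 counts and overlapped.

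Of the endocrine FGFs, which circulate and need a klotho co-receptor, Fgf21 also had 0 counts in both mature and 4 in each elderly library. This difference did not pass the test (adjusted p = 0.513, edgeR), and the interval of its log2 fold change includes 0. Fgf21 had enough counts to be tested only through its elderly libraries, so no minimum fold was read from these counts. Fgf23, the phosphate hormone of osteocytes, had 13 and 1 counts in mature and 16 and 5 in elderly libraries, a spread within each age as wide as that between them. Fgf15, an intestinal hormone, had 0, 2, 8 and 0 counts. The FGF homologous factors stay inside the cell and bind sodium channels rather than FGF receptors. Among them, Fgf11 had 59 and 76 counts in mature and 39 and 70 in elderly libraries (5.80 ± 1.02 against 4.06 ± 0.79 CPM, SD, n = 2), lower in both elderly libraries after scaling, with a log2 fold change of -0.51 that did not pass the test (adjusted p = 0.690, edgeR). Fgf13 had 24, 14, 31 and 12 counts and overlapped, and Fgf14 had 2, 4, 4 and 11.

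In all, 13 of the genes tested had under 1 CPM on average, with 4 to 48 counts over the 4 libraries. Besides those above, these were Fgf8 (0, 1, 3 and 0 counts), Fgf16 (0, 2, 4 and 1), Fgf22 (4, 0, 0 and 0) and Pdgfd (5, 2, 1 and 9). Both elderly libraries were above both mature ones in 5 of the 13 and below in 0, against 22.9% and 18.1% of all genes tested. Fgf3, Fgf10 and Fgf21 are among the 5 and passed the filter on low counts only through their elderly libraries, so nothing was read from this count. Another 7 genes had no more than 2 counts in all and were not tested: Fgf4, Fgf5, Fgf6, Fgf9, Fgf12, Fgf20 and Pdgfc. They were not detectable at this depth on the bases that could be counted, which ranged from 241 of 3065 bases for Fgf12 to all 3030 for Fgf4. Among the genes tested, Pdgfd had only 49 of 3052 bases that could be counted, and no low level was read from its counts.

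The PDGF genes did not pass the test in either direction. Pdgfa, the PDGF-A chain that activates PDGFRα, had 81 and 94 counts in mature and 128 and 168 in elderly libraries. Both elderly libraries were higher, at 11.5 and 11.1 CPM against 6.97 and 8.06 CPM, with a log2 fold change of 0.59 (95% interval -0.06 to 1.23, adjusted p = 0.517, edgeR). Both Pdgfa transcripts with at least 20 counts had this order, with log2 ratios of mean CPM of 0.65 and 0.77.

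Pdgfra, a surface marker of marrow stroma, had 295 and 335 counts in mature and 251 and 355 in elderly libraries, which is 25.4 and 28.7 CPM against 22.5 and 23.4 CPM. Both elderly libraries were lower, by a difference whose interval includes 0 (log2 fold change -0.24, 95% interval -0.76 to 0.29, adjusted p = 0.812, edgeR). Pdgfra-201, with 80.3% of the counts, had this order, and Pdgfra-202, with 19.7%, overlapped between ages (log2 ratios of mean CPM -0.34 and 0.18). Pdgfrb, the receptor of pericytes and perivascular stroma, had 109, 122, 77 and 101 counts, or 9.92 ± 0.76 CPM in mature and 6.79 ± 0.18 CPM in elderly mice (SD, n = 2). It too was lower in both elderly libraries (log2 fold change -0.55, 95% interval -1.21 to 0.11, adjusted p = 0.573, edgeR). Pdgfrb-002, with 78.2% of the counts, had this order, and Pdgfrb-001, with 21.8%, overlapped between ages (log2 ratios of mean CPM -0.67 and -0.08). The 71 countable bases of Pdgfrb-002 and the 184 of Pdgfra-202 lie inside an intron of another coding transcript. Counts there do not separate spliced from intronic RNA. Of 8 pericyte and smooth muscle markers, Myh11 was at 0 in all 4 libraries, Acta2 was called higher and the summed level was 114 and 183 CPM in mature and 147 and 151 CPM in elderly libraries; their part in the Pdgfrb value was not tested. Only 351 of 6570 bases of Pdgfra and 126 of 5423 bases of Pdgfrb, nearly all in 5′ untranslated regions, could be counted.

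The VEGF ligands ranged from the most counted of these genes, Vegfc, to Vegfb with 56 counts in all, and none passed the test. Vegfc, a ligand of VEGFR3 (Flt4) known for lymphatic growth, at chr8:55162886-55271808, had 5414 and 4846 counts in mature and 2617 and 6553 in elderly libraries. Elderly replicate 1 was low at 235 CPM, whereas elderly replicate 2, at 432 CPM, lay between the mature libraries at 466 and 416 CPM. The log2 fold change was -0.40 (95% interval -0.96 to 0.16, adjusted p = 0.648, edgeR), and it was -0.05 without elderly replicate 1 and -0.91 without elderly replicate 2. Its counts lay on coding exons and untranslated ends of 1 transcript, Vegfc-201 (99.6%).

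Vegfa, the main angiogenic factor and a hypoxia target, had 382, 604, 394 and 357 counts. The mature libraries stood at 32.9 and 51.8 CPM and the elderly libraries at 35.4 and 23.6 CPM, so the ages overlapped (log2 fold change -0.53, 95% interval -1.13 to 0.08, adjusted p = 0.552, edgeR). None of these counts lay on a coding transcript: Vegfa-006 held 84.4% of them and overlapped between ages at 26.8, 42.4, 31.6 and 20.4 CPM, and Vegfa-002 held 13.2% and was lower in both elderly libraries, at 4.82 and 8.06 against 3.23 and 2.84 CPM. Vegfb, a ligand of VEGFR1, had 14, 12, 15 and 15 counts (95% interval of the log2 fold change -1.39 to 1.497). Figf, which encodes VEGF-D, another ligand of VEGFR3, had 24 and 48 counts in mature and 29 and 78 in elderly libraries, and the ages overlapped.

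**Figure D4:**
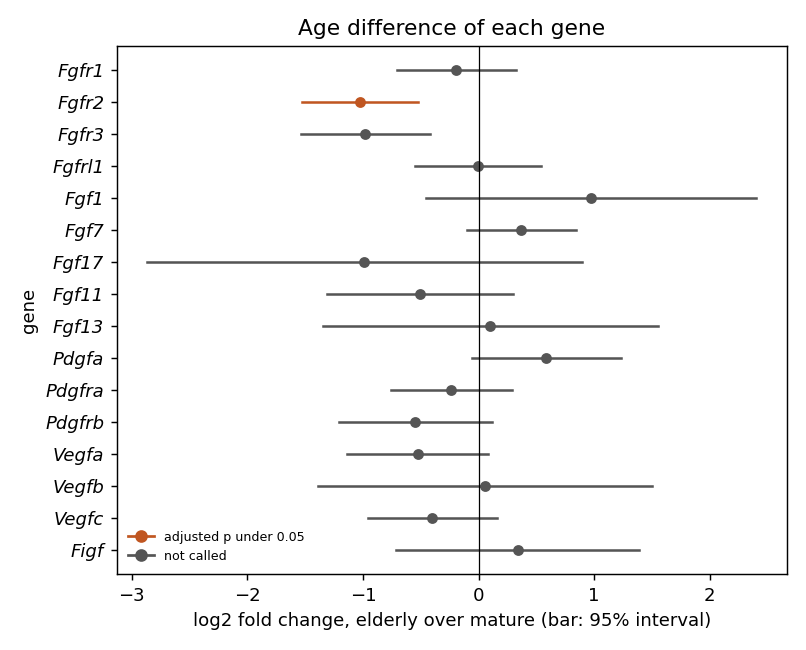
Log2 fold change of elderly over mature with its 95% interval for the 16 genes shown by level, from edgeR's quasi-likelihood fit. The intervals of Fgfr2 and Fgfr3 lie below 0, and Fgfr2 (orange) has an adjusted p under 0.05.

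To compare genes with each other, CPM was divided by the kilobases of each gene that could be counted. On this scale the mean level over the 4 libraries was 327 for Vegfc, 117 for Vegfa, 97.1 for Fgfrl1, 71.3 for Pdgfra, 66.3 for Pdgfrb, 38.7 for Fgfr2, 33.9 for Fgf7, 21.1 for Fgfr1, 11.3 for Pdgfa and 10.9 for Fgfr3. Neighbours in this order did not all separate: the libraries of Pdgfra ran from 64.2 to 81.8 and those of Pdgfrb from 52.9 to 83.0, and Vegfa, from 76.7 to 169, overlapped Fgfrl1, from 86.2 to 108. Vegfc, from 199 to 394, lay above all others in every library. The bases that could be counted ranged from 126 for Pdgfrb to 3664 for Fgfr1, and reads can reach past the ends of a short stretch. For example, 16 bases of Fgfr2-024 took 69 counts. How far short stretches raised the values was not tested, so the order is not a firm order of expression. Levels of Vegfa, Fgfr1, Fgfr2 and Fgfr3 on this scale are largely levels on intronic bases and those of Vegfc levels on exons, so the order mixes both. The 273 countable bases of Fgfrl1 are coding bases that lie inside an intron of another coding transcript. Counts there do not separate spliced from intronic RNA.

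The genes around these receptors were taken from 7 lists, with 79 of 84 genes tested. Of these, 4 were called higher (Flt4, Sdc3, Ccnd1 and Adm) and 2 lower (Sulf1 and Gpc3), against 2.28% and 0.45% of all genes tested. Among the VEGF receptors and co-receptors, 1 of 6 was called. Flt4, which encodes VEGFR3, the receptor of the Vegfc and Figf products, at chr11:49422765-49466241, had 52 and 70 counts in mature and 202 and 254 in elderly libraries, with 97.6% of them on coding transcripts. It rose from 5.24 ± 1.08 to 17.5 ± 0.98 CPM (SD, n = 2), 3.32-fold, and both elderly libraries were well above both mature ones (log2 fold change 1.73, SE 0.30, adjusted p = 0.00845, edgeR). The adjusted p was 0.164 without elderly replicate 1, 0.601 without elderly replicate 2 and 0.321 with the exact test, with log2 fold changes of 1.66, 1.79 and 1.73.

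The other VEGF receptors did not pass. Flt1, which encodes VEGFR1, had 35, 17, 39 and 98 counts (log2 fold change 1.16, adjusted p = 0.355, edgeR), and Kdr, which encodes VEGFR2, had 16, 8, 13 and 31 (0.65, adjusted p = 0.812, edgeR). The co-receptor Nrp1 was counted 28313, 27881, 20044 and 39228 times and Nrp2 143, 179, 187 and 236 times, with log2 fold changes of -0.14 and 0.23. Pgf, a ligand of VEGFR1, had 2425, 1849, 2032 and 3117 counts and a log2 fold change of 0.08. Sinusoidal endothelium expresses Flt4, and the values of endothelial markers were as follows: 0 of 7 tested were called by edgeR and 1 by DESeq2, 2 were higher at an unadjusted p under 0.05, Tek and Robo4 were at 0 in all 4 libraries, the summed level of all 11 was 20.9 and 34.4 CPM in mature and 29.92 and 29.95 CPM in elderly libraries, and the median log2 fold change was 1.01. Pecam1, the most counted of them, which encodes the CD31 the sort selects against, had 156, 292, 167 and 102 counts, whereas Cdh5 had 16, 19, 36 and 141 and Stab2 had 23, 24, 49 and 87. Their part in the Flt4 value was not tested.

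Among 17 proteoglycans and enzymes of heparan sulphate, on which FGFs and VEGFs bind, 2 fell, 1 rose and 14 did not pass. Sulf1, which removes sulphate groups from heparan sulphate and so lowers FGF binding, was counted 17406 and 16925 times in mature and 5413 and 9609 times in elderly libraries, and fell from 1475 ± 33.1 to 560 ± 104 CPM (SD, n = 2; log2 fold change -1.40, adjusted p = 0.00317, edgeR). The call ended without elderly replicate 2 (adjusted p = 0.601, edgeR) and with the exact test (0.546). The glypican Gpc3 had 54, 36, 1 and 11 counts (log2 fold change -3.12, adjusted p = 0.0318, edgeR), and the adjusted p was 0.302 without elderly replicate 1 and 0.601 without elderly replicate 2. The syndecan Sdc3 had 792 and 912 counts in mature and 1556 and 2231 in elderly libraries (log2 fold change 0.97, adjusted p = 0.0193, edgeR), and its adjusted p lay between 0.0974 and 0.601 when any 1 library was left out. Both elderly libraries were below both mature in 11 of the 17, against 18.1% of all genes tested, and the list's median log2 fold change was -0.41.

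**Figure D5:**
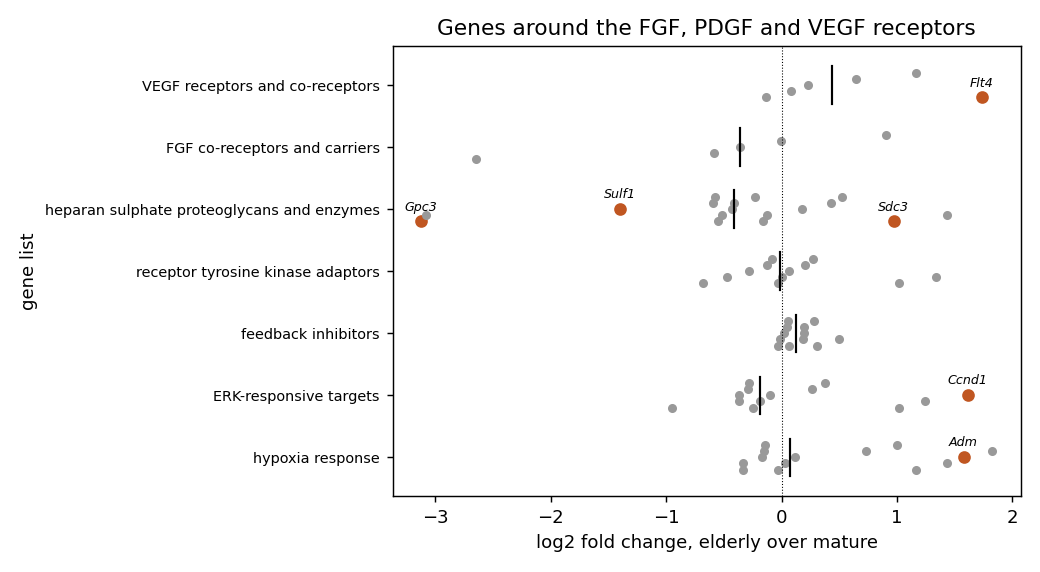
Log2 fold change of elderly over mature for the 79 tested genes of 7 lists; black bars are list medians and orange points are genes with an adjusted p under 0.05. Called genes are Flt4, Sdc3, Ccnd1 and Adm on the higher side and Sulf1 and Gpc3 on the lower side, and the feedback inhibitors lie close to 0.

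Downstream of the receptors, few genes were called, but several could hardly be counted. Dusp6 had 2 bases that could be counted, Phlda1 4, Egr1 64 and Etv5 178, and Spry3, Dusp6 and Phlda1 were not tested. For the adaptors Ptpn11 and Shc1, 99.8% and 95.2% of the counts lay on transcripts annotated as retained introns. Unchanged signalling was therefore not read from these lists. Of 12 adaptors, 0 were called by edgeR, DESeq2 or the exact test and 0 reached an unadjusted p under 0.05, with log2 fold changes from -0.68 to 1.34 and a median of -0.01. The same counts of 0 were found for 12 feedback inhibitors, and their log2 fold changes ran only from -0.03 to 0.50, with a median of 0.13. Among 13 ERK-responsive targets, 2 were higher (Ccnd1 and Fosl1) and 1 lower (Myc) at an unadjusted p under 0.05 by edgeR, and 1 was called. This was Ccnd1, which encodes cyclin D1 of the cell cycle and had 84 and 110 counts in mature and 284 and 386 in elderly libraries (log2 fold change 1.61, adjusted p = 0.00749, edgeR). Its adjusted p was 0.141 without elderly replicate 1, 0.601 without elderly replicate 2 and 0.399 with the exact test. Of 8 proliferation markers, 3 were called higher in elderly mice, and their summed level was 316 and 127 CPM in mature and 870 and 626 CPM in elderly libraries; their part in the Ccnd1 value was not tested.

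Of 14 hypoxia-response genes, Vegfa's regulators among them, 1 was called. At an unadjusted p under 0.05 by edgeR, 3 were higher (Adm, Egln3 and Pdk1) and 0 lower. Adm, which encodes the vasodilator adrenomedullin, had 463 and 496 counts in mature and 1059 and 2280 in elderly libraries (log2 fold change 1.58, adjusted p = 0.00384, edgeR), and lost its call without elderly replicate 2 (adjusted p = 0.601) and with the exact test (0.41). The rest of the list had a range of log2 fold changes reaching from -0.33 to 1.82, the latter for Egln3, and a list median of 0.07. Of the 5 FGF co-receptors and carriers tested, 0 were called by edgeR or DESeq2 and 1 was higher at an unadjusted p under 0.05, and Kl and Fgfbp1 had too few counts to be tested. Klb, the co-receptor of Fgf15 and Fgf21, had 64 and 59 counts in mature and 52 and 37 in elderly libraries, and Fgfbp3, a carrier that releases FGFs from the matrix, had 95 and 69 against 142 and 206 (adjusted p = 0.677 and 0.201, edgeR).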

How the data were processed

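RNA-seq libraries from mature and elderly mice (2 each) were grouped by the titles of the labels. The authors removed adapters with CutAdapt, mapped reads with HISAT2 to mm9 and counted with featureCounts, without versions given in the sources used here; the deposited values are raw counts per Ensembl transcript. The strand setting of the counting is not given in the sources used here. Of 95883 transcripts, 388 (0.0785% to 0.0888% of counts) did not match GENCODE M1 and were left out of the genes. All 25621 transcripts without a base of their own had 0 counts.

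Counts were summed per gene symbol, and genes with a summed count over 2, the filter of the study's methods, were compared by edgeR 4.0.16 (R 4.3.3; TMM, quasi-likelihood test, two-sided, Benjamini-Hochberg over 21340 genes, prior count 0.125). The script was tested on simulated data. Genes were named with every library's count where the adjusted p was under 0.05 or the mean at least 1 CPM. Of the lists, called genes and VEGF receptors were named. Transcripts were to be named where they held at least 10% of a gene's counts, but not all such transcripts are named above. Any other gene or transcript was named after its values were seen. Alternatives were DESeq2 1.42.0, edgeR's exact test with a dispersion of 0.2, the robust fit, other scalings and filters, protein-coding genes, transcripts as features, a replicate block, each library left out, and, chosen after seeing the data, coding or other transcript types alone. Depth was 10472117 to 15650518 counts per library, and intervals on ratios of counts cover counting error only. Members and lists were chosen with earlier results of these data known.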

Additional observations from a re-analysis of the deposited data

How the results depend on the processing

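No setting run called any FGF, PDGF or VEGF gene higher. The number called lower was 1 with library size only, with TMM without immunoglobulin, hemoglobin and histone genes and with transcripts as features. It was 2, with Fgfr3 added to Fgfr2, under DESeq2, the robust fit, filterByExpr, no filter, protein-coding genes only and the replicate block, 0 under the exact test, coding transcripts only and other transcript types only, and 0 to 1 with a library left out. For the pathway lists, the number called higher was 0 under the exact test, 7 without a filter, 7 with the replicate block, 0 on other transcript types and 0 to 5 with a library left out; the number called lower was 1 under the exact test, 0 on other transcript types and 0 to 2 with a library left out. Over all genes, 487 higher and 96 lower became 200 and 33 with the exact test, 726 and 182 with the robust fit, 892 and 265 without a filter, 970 and 292 with the replicate block, 113 and 20 on other transcript types, 36 and 4 without elderly replicate 1 and 0 and 0 without elderly replicate 2. The cause of these differences was not tested.

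Same-numbered libraries shared a correlation of 0.0424 of their deviations over 12743 genes, so the replicate number was not taken as a pairing. Signs of small log2 fold changes turned: Fgfrl1 to 0.035 with library size only; Fgf13 to -0.029 with the replicate block; Fgf13 to -0.68, Fgf7 to -0.055, Fgfr1 to 0.005, Vegfb to -0.31 and Sdc3 to -0.76 on other transcript types. With a library left out, the values of 8 genes crossed 0 and ranged from -1.05 to 0.77 for Fgf13, -1.79 to 0.94 for Fgf17, -0.51 to 0.15 for Fgfr1, -0.19 to 0.16 for Fgfrl1, -0.25 to 0.88 for Figf, -0.19 to 0.27 for Vegfb, -0.42 to 0.084 for Nrp1 and -0.15 to 0.29 for Pgf. Depth limited the 13 genes under 1 CPM, whose 4 to 48 counts leave wide intervals.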
